A study of Mus musculus with 10 samples.

Results

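Microglia, the resident macrophages of the brain, were read in the cerebral cortex through 36 genes: *Cx3cr1*, *P2ry12*, *P2ry13*, *Tmem119*, *Gpr34*, *Siglech*, *Fcrls*, *Selplg*, *Olfml3*, *Csf1r*, *Spi1*, *Irf8*, *C1qa*, *C1qb*, *C1qc*, *Trem2*, *Tyrobp*, *Fcer1g*, *Fcgr3*, *Inpp5d*, *Itgam*, *Ptprc*, *Cd53*, *Laptm5*, *Csf3r*, *Ctss*, *Lgmn*, *Cd68*, *Mpeg1*, *Lyz2*, *Cd14*, *Tlr2*, *Tlr7*, *Ly86*, *Aif1* and *Hpgds*. Each gene was read by its brightest probe set among those whose annotation names that gene alone, and all 36 were found among the 18193 genes that the arrays measured. The cortices came from 5 WT and 5 Crtc1-/- mice (Crtc1KO in the labels), which were littermates, female, of the strain C57BL/6N, adult at 2 months and given no treatment. *Crtc1* encodes a coactivator of the transcription factor CREB, and the sources used here restrict its loss to no cell type. Each array held the cortical RNA of 1 mouse, and the labels give no litter, dissection day or scan batch.

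Microglia survey the tissue with motile processes, take up debris and synaptic material, and answer damage. Their survival depends on signaling through the receptor Csf1r, and their identity rests on transcription factors that include PU.1 (encoded by *Spi1*) and Irf8. In healthy cortex they are a minority of the cells, so a bulk RNA sample reads them against a much larger neuronal and macroglial background. A lower value of a microglia gene in such a sample can reflect fewer microglia or less RNA per cell, and these cannot be told apart here.

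The arrays passed the check of the targeted gene. *Crtc1* had log2 values of 9.69 ± 0.15 in WT and 6.38 ± 0.27 in Crtc1-/- mice (SD, 5 mice each), and the genotypes did not overlap. The medians of the 10 arrays lay between 5.29 and 5.32, and the correlation between arrays between 0.994 and 0.998 over probe sets. Of the 36 microglia genes, 34 had a mean above the median probe set (5.30 on the log2 scale), and *Tlr2* and *Tlr7* lay under it. Since each gene was read by its brightest probe set, 11780 of all 18193 genes also lay above that median. Blood leukocyte genes were dim in the same arrays, with 2 of 10 measured genes above that median. Of 10 genes of perivascular macrophages, another macrophage of the brain, 5 were above it.

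No microglia gene passed the test of genotype. Of the 36 genes, 0 were lower and 0 were higher in Crtc1-/- cortex (limma, adjusted p under 0.05), against 0.456% of all genes that were lower and 0.308% that were higher. At an unadjusted p under 0.05 the count was also 0, where 9.86% of all genes passed, and the smallest exact permutation p among the 36 was 0.103. The unadjusted count depended on the model, and was 7 of 36 with the mean of astrocyte genes as a covariate and 4 with that of oligodendrocyte genes, with 0 passing the adjusted test in either. The log2 fold changes of the 36 ran from −0.33 to 0.12 with the astrocyte and from −0.14 to 0.45 with the oligodendrocyte covariate. The share of all genes under that p was not computed for these 2 models, so the counts have no background. Without a covariate, 22 genes had a log2 fold change above 0 and 14 below 0, with a median of 0.01, beside −0.003 over all genes. All mice of one genotype lay on the same side of all mice of the other in 571 of the 18193 genes, and in none of the 36. The differences were small. The log2 fold change was within 0.1 of 0 in 29 genes and within 0.2 in 35.

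The intervals bound the size of a genotype difference that could have gone unseen. For all 36 genes the 95% confidence interval of the log2 fold change held 0 and lay within a 1.5-fold change in either direction, and 98.7% of all genes had an interval within that bound. Within 0.32 of 0 on the log2 scale lay 29 of 36 intervals, while 88.1% of all genes met this tighter bound. The median half-width of the intervals was 0.22 on the log2 scale, and it ran from 0.11 for *Lgmn* to 0.43 for *Ly86*. Microglia genes varied more between mice of one genotype than most genes did. The median SD within genotype was 0.18 on the log2 scale for them, 0.103 for all genes and 0.086 for the other genes brighter than the median probe set. These intervals are not adjusted for the number of genes.

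**Figure D1:**
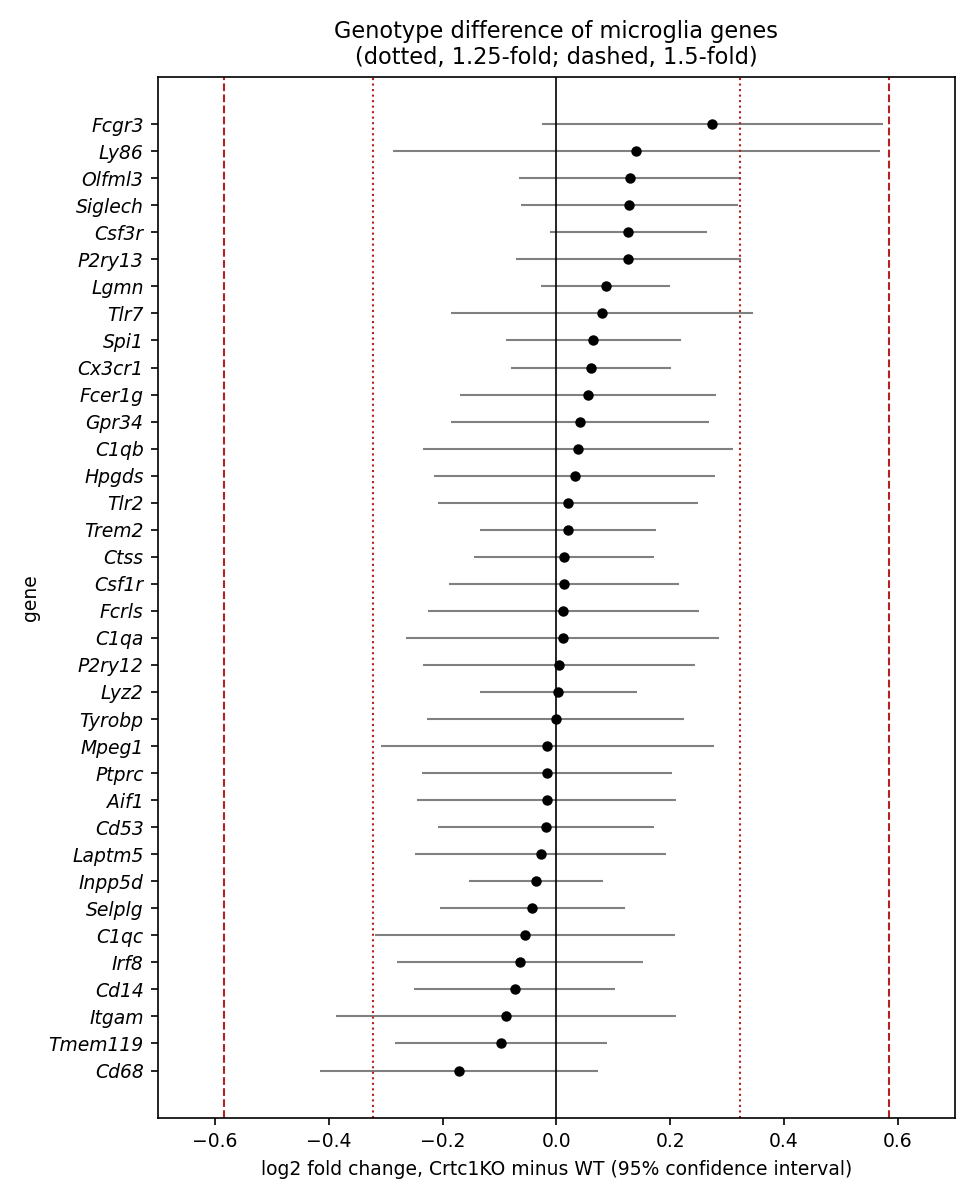
Difference between Crtc1-/- and WT mice as a log2 fold change (x axis) with its 95% confidence interval from limma for each of the 36 microglia genes (y axis), from *Cd68* at −0.17 to *Fcgr3* at 0.27. Dotted lines mark 0.32 on the log2 scale and dashed lines a 1.5-fold change, and every interval holds 0 and ends inside the dashed lines.

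Among the 9 genes that mark the surveying state of microglia, 7 had a log2 fold change above 0 and 2 below, and none passed the test. *Tmem119*, a membrane protein used to tell microglia from other macrophages, read 8.08, 8.12, 7.93, 7.70 and 7.76 in WT replicates 1 to 5 and 7.80, 7.76, 7.84, 7.98 and 7.73 in Crtc1-/- replicates 1 to 5. Its log2 fold change was −0.10 (95% confidence interval −0.28 to 0.09, adjusted p = 0.813 from limma), and all 5 Crtc1-/- mice lay inside the range of the WT mice. *P2ry12*, the ADP receptor that steers microglial processes, read 9.11, 9.10, 9.06, 8.64 and 8.69 in WT and 8.98, 8.69, 8.97, 9.11 and 8.87 in Crtc1-/- mice. Its log2 fold change was 0.005 (−0.23 to 0.24), and low and high mice occurred in both genotypes. *Cx3cr1*, the receptor of the neuronal chemokine fractalkine, had a log2 fold change of 0.06 with a narrower interval (−0.08 to 0.20). Among the others, the log2 fold change was 0.13 for *P2ry13*, a second ADP receptor, 0.13 for the lectin *Siglech*, 0.13 for *Olfml3*, which encodes a secreted protein, 0.04 for the orphan receptor *Gpr34*, 0.01 for *Fcrls* and −0.04 for *Selplg*, the ligand of P-selectin. Adjusted p in these 9 genes was 0.728 or higher.

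*Csf1r*, the receptor whose signal keeps microglia alive, read 11.07, 10.99, 10.99, 10.60 and 10.69 in WT and 10.94, 10.84, 10.88, 11.01 and 10.73 in Crtc1-/- mice. Both genotypes had high and low mice, and the fold was 1.01 (95% confidence interval 0.88 to 1.16, adjusted p = 0.98 from limma). Its other probe sets, both dimmer, gave log2 fold changes of 0.01 and −0.01. *Spi1*, which encodes PU.1, had a log2 fold change of 0.06 (−0.09 to 0.22), and *Irf8*, its partner, −0.06 (−0.28 to 0.15).

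The 3 chains of C1q, the first component of the classical complement pathway, are encoded by neighbouring genes on chromosome 4 in the order *C1qb*, *C1qc*, *C1qa* (GRCm38.p6). *C1qa* read 9.71, 9.74, 9.64, 9.10 and 9.21 in WT and 9.68, 9.50, 9.33, 9.43 and 9.52 in Crtc1-/- mice, a fold of 1.01 (95% confidence interval 0.83 to 1.22). *C1qb* read 9.22, 9.61, 9.53, 9.36 and 9.15 in WT and 9.48, 9.42, 9.51, 9.67 and 8.97 in Crtc1-/- mice (fold 1.03, 0.85 to 1.24). *C1qc* read 8.57, 8.81, 8.84, 8.66 and 8.48 in WT and 8.72, 8.41, 8.74, 8.95 and 8.27 in Crtc1-/- mice (fold 0.96, 0.80 to 1.16). Thus the genotypes overlapped in each chain, but the mice that were high were only partly the same ones. WT replicates 2 and 3 and Crtc1-/- replicate 1 were above their genotype mean in all 3 chains, and other mice differed between chains. WT replicate 1 was 0.23 above its genotype mean in *C1qa* and under it in *C1qb* and *C1qc* (deviations of −0.16 and −0.10), and Crtc1-/- replicate 5 was near its mean in *C1qa* (0.03) and lowest in *C1qb* and *C1qc* (−0.44 and −0.35).

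Trem2 is a lipid-sensing receptor that signals through the adaptor Tyrobp (DAP12), and Fc receptors signal through the related adaptor Fcer1g. *Trem2* had a log2 fold change of 0.02 (95% confidence interval −0.13 to 0.17) and the adaptor gene *Tyrobp* of −0.001 (−0.23 to 0.23). *Tyrobp* read 8.91, 8.89, 8.86, 8.56 and 8.50 in WT and 8.92, 8.80, 8.60, 8.89 and 8.52 in Crtc1-/- mice. WT replicates 4 and 5 and Crtc1-/- replicates 3 and 5 were the low mice, and the others were all above them. *Fcgr3*, a low-affinity IgG receptor, had the largest difference of the 36 genes, with 7.61, 7.85, 7.52, 7.04 and 7.38 in WT and 7.82, 7.69, 7.72, 8.03 and 7.49 in Crtc1-/- mice. This is a fold of 1.21 (95% confidence interval 0.98 to 1.49, adjusted p = 0.565 from limma, exact permutation p = 0.135), and WT replicates 1, 2 and 3 lay within the range of the Crtc1-/- mice. *Csf3r*, the receptor of G-CSF, read 5.60, 5.64, 5.36, 5.37 and 5.40 in WT and 5.61, 5.65, 5.51, 5.63 and 5.61 in Crtc1-/- mice, a difference of 0.13 on the log2 scale (−0.01 to 0.26) with the lowest adjusted p of the 36 genes (0.560 from limma). WT replicates 1 and 2 lay inside the range of the Crtc1-/- mice, and the other 3 WT mice below it. *Fcer1g* had a log2 fold change of 0.06, the phosphatase gene *Inpp5d* (SHIP1) of −0.04, the integrin gene *Itgam* (CD11b) of −0.09, and *Ptprc* (CD45), *Cd53* and *Laptm5* of −0.02, −0.02 and −0.03.

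Of 5 genes of lysosomes and phagocytosis, 3 had a log2 fold change above 0 and 2 below, and none passed the test. *Cd68*, a lysosomal membrane protein that rises in phagocytic cells, had the lowest log2 fold change of the 36 genes, −0.17 (95% confidence interval −0.42 to 0.07, adjusted p = 0.707 from limma). It read 6.43, 6.47, 6.23, 6.03 and 5.95 in WT and 6.26, 6.08, 5.86, 6.16 and 5.89 in Crtc1-/- mice, so the lower WT mice lay among the Crtc1-/- mice. *Ctss*, the protease cathepsin S, had a log2 fold change of 0.01 (−0.15 to 0.17), the pore-forming gene *Mpeg1* (perforin-2) of −0.02 (−0.31 to 0.28) and *Lyz2*, lysozyme, of 0.003 (−0.13 to 0.14). *Lgmn*, the asparaginyl endopeptidase legumain, read 8.24, 8.18, 8.18, 8.14 and 8.35 in WT and 8.34, 8.36, 8.18, 8.31 and 8.32 in Crtc1-/- mice, a log2 fold change of 0.09 (−0.03 to 0.20) with 4 of 5 WT mice below 4 of 5 Crtc1-/- mice. The innate sensors *Cd14*, *Tlr2* and *Tlr7* had log2 fold changes of −0.07, 0.02 and 0.08. *Ly86* (MD-1), a partner of an endotoxin receptor homologue, varied most between mice, with 8.38, 8.95, 8.89, 8.23 and 8.58 in WT and 9.13, 8.88, 8.61, 9.02 and 8.08 in Crtc1-/- mice, and its interval was correspondingly wide (log2 fold change 0.14, −0.29 to 0.57). *Aif1* (Iba1), the usual histological label of microglia, had a log2 fold change of −0.02 (−0.25 to 0.21), and *Hpgds*, the hematopoietic prostaglandin D synthase, of 0.03 (−0.22 to 0.28).

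**Figure D2:**
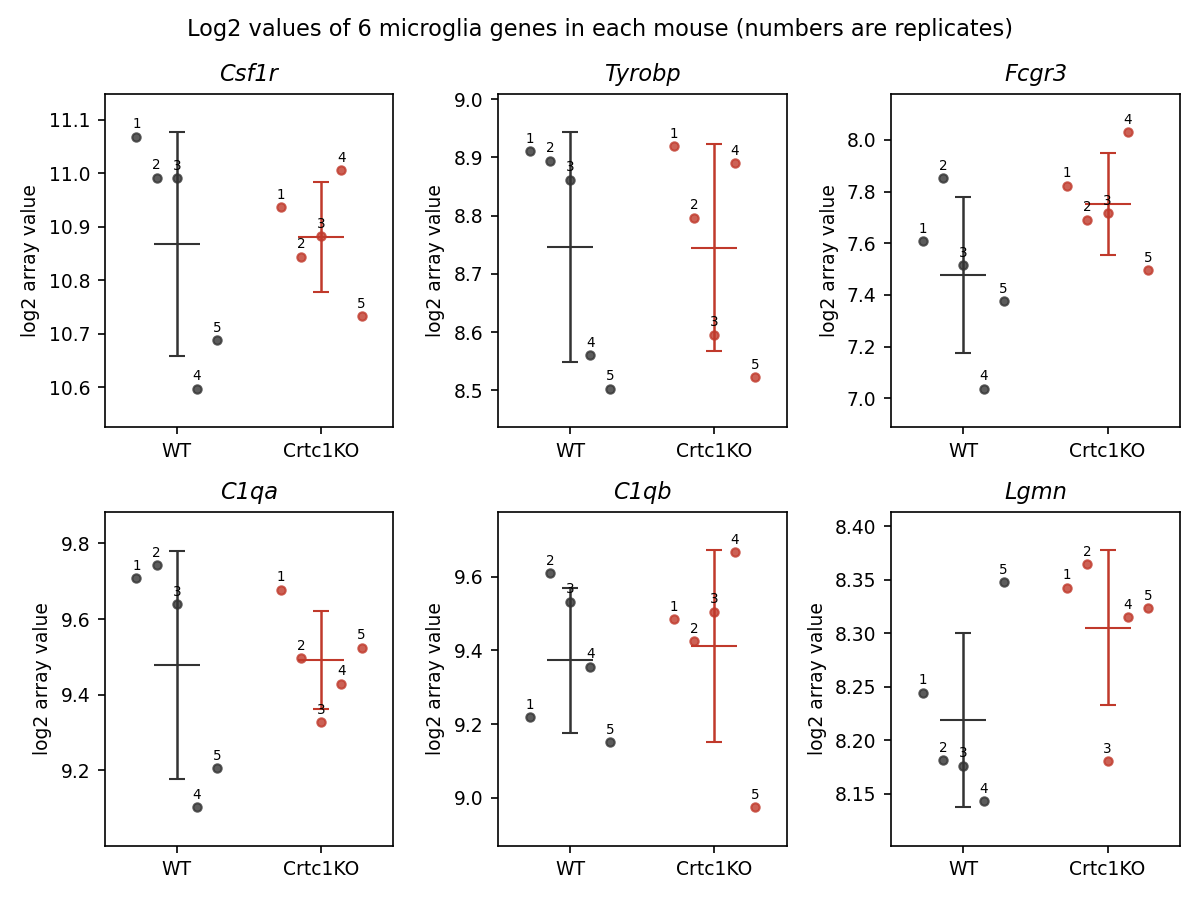
Log2 array values (y axes, which do not start at 0) of *Csf1r*, *Tyrobp*, *Fcgr3*, *C1qa*, *C1qb* and *Lgmn* in 5 WT (black) and 5 Crtc1-/- (red) mice, with each mouse as a point numbered by its replicate and group means ± SD as bars. The genotypes overlap in every panel, and WT replicates 4 and 5 and Crtc1-/- replicate 5 are low in *Csf1r* and *Tyrobp* while in *Lgmn* WT replicate 5 is the highest WT mouse and Crtc1-/- replicate 5 lies above its mean.

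Although the genotypes did not separate, the microglia genes differed between mice together. To describe this, each value was expressed as its deviation from the mean of its genotype, so that no genotype difference enters. WT replicate 4 was below the WT mean in 34 of 36 genes and WT replicate 5 in 32, while WT replicates 1 and 2 were above it in 31 genes each. In Crtc1-/- mice, replicate 5 was below the mean in 31 of 36 genes, and replicates 1 and 4 were above it in 30 genes each. Over all genes, these mice were above their genotype mean in 46.4% to 62.1% of genes. The mean deviation over the 36 genes ran from −0.18 (WT replicate 4) to 0.14 (WT replicate 2) on the log2 scale, and from −0.17 (replicate 5) to 0.12 (replicate 1) among Crtc1-/- mice. The lowest WT value was that of replicate 4 in 22 of 36 genes, and the lowest Crtc1-/- value was that of replicate 5 in 22 of 36.

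**Figure D3:**
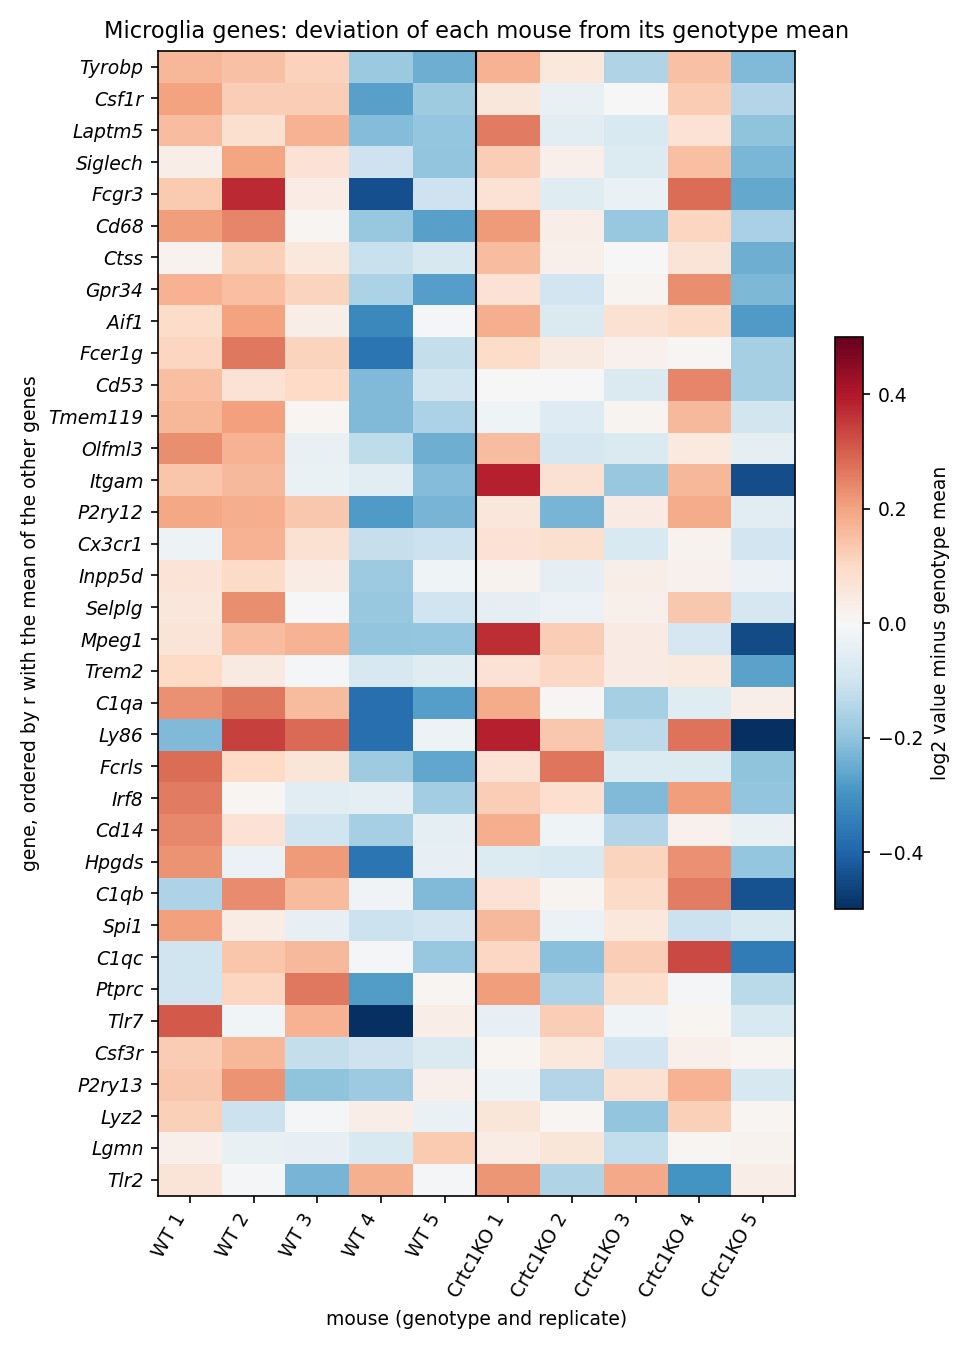
Deviation of each mouse (columns) from its genotype mean on the log2 scale (color, limited to ±0.5, beyond which *Ly86* in Crtc1-/- replicate 5 lies at −0.66) for the 36 microglia genes (rows), ordered by their correlation with the mean of the other 35. Most rows are blue (below the mean) in WT replicates 4 and 5 and Crtc1-/- replicate 5, and in the 3 lowest rows, *Lyz2*, *Lgmn* and *Tlr2*, Crtc1-/- replicate 5 is above it.

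The correlations of these deviations over the 10 mice are given as a description, since the deviations of 5 mice share a genotype mean and the genes share arrays. The first principal component held 60.8% of the variance of these deviations over the 36 genes, beside 19.9% over all genes. The median Pearson r over the 630 pairs of microglia genes was 0.58 (Spearman rho 0.58), and 566 pairs (89.8%) were above 0. The mean over these pairs was 0.50, beside 0.02 over all pairs of the 18193 genes. Genes of other cell types kept together too. The same mean was 0.54 for 11 oligodendrocyte genes, 0.37 for 17 astrocyte genes and 0.32 for 14 brain endothelial genes. Each gene was also set against the mean of the other 35. By this measure 22 of 36 genes had an r over 0.7, where 4.61% of the genes outside the list had an r over 0.7 with the mean of the 36. Such an r was not particular to microglia genes. It was found in 6 of 17 astrocyte genes (35.3%), 5 of 12 interferon response genes (41.7%), 2 of 14 brain endothelial genes and 0 of 11 oligodendrocyte genes. In 33 of the 36 microglia genes the r was over 0.5. It was highest in *Tyrobp* (0.94), *Csf1r* (0.94), *Laptm5* (0.91), *Siglech* (0.91), *Fcgr3* (0.90) and *Cd68* (0.90). The tightest pair was *Tyrobp* and *Cd68* (r = 0.95), followed by *Tmem119* and *Selplg* (r = 0.95).

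The roles differed in how closely their genes kept together. Among the 9 genes of the surveying state the median pairwise r was 0.67 and all 36 pairs were above 0. Among the 10 genes of Trem2 and Fc receptor signaling and the leukocyte surface it was 0.65, with 44 of 45 pairs above 0. The C1q chains were divided, with an r of 0.90 between *C1qb* and *C1qc* but 0.21 and 0.15 between *C1qa* and each of them. The brightest *C1qb* probe set had an r of 0.63 with the mean of the other microglia genes and its other 2 probe sets 0.56 and 0.51, while *C1qa* and *C1qc* have 1 probe set each. *Lgmn* (r = −0.03), *Lyz2* (0.14) and *Tlr2* (−0.30) were the 3 genes under 0.2. *Tlr2* was dim, whereas *Lgmn* and *Lyz2* lay above 80.3% and 66.2% of all probe sets. Of the other probe sets of these genes, both of *Csf1r* kept close to the microglia genes (r = 0.91 and 0.89), and those of *Laptm5* ran from 0.93 to 0.09. The 8 other probe sets under the median of all probe sets were mixed. Their r was above 0 in 4 (0.73 in *Laptm5*, 0.70 in *Cx3cr1*, 0.67 in *Tlr7* and 0.33 in *Irf8*) and below 0 in 4 (−0.09 in *Trem2*, −0.30 in *Cd53*, −0.44 in *Ptprc* and −0.56 in another of *Tlr7*).

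The promoters of 27 of the 36 genes were in the RefSeq table of GRCm38.p6, in 31 windows of 300 bases from 250 before to 50 after a transcript start. They are described here because the genes vary together between mice. The element GAGGAA, the core that PU.1 binds, was found on either strand in 18 of 31 windows (58.1%) and in 28.3% of all 32851 windows. Its longer form GAGGAAGT, which contains the core, was found in 5 of 31 (16.1%) and in 3.2% of all windows. These 5 windows belong to *C1qc*, *Inpp5d*, *Cd53*, *Ctss* and *Hpgds*. For CREB, the element TGACG, the shared part of a cyclic AMP response element, was found in 5 of 31 (16.1%) and in 20.8% of all windows, and the full palindrome TGACGTCA in 0 of 31 and in 1.79% of all windows. A match describes these letters and not a bound site. The windows of *Ctss* and *Cd53*, whose deviations kept close to the other genes, of *C1qb* and *C1qc*, which kept close to each other, and of *Lgmn*, which did not follow them, are shown up to 30 bases past the start. GAGGAA was also missing from the windows of *Fcer1g* (r = 0.89 with the mean of the other genes), *Olfml3* (0.80), *P2ry12* (0.79), *Cx3cr1* (0.79) and *Mpeg1* (0.78), as it was from those of *Lgmn*, *Lyz2* and *Tlr2*. Each reads 5′ to 3′ on the gene's strand, and capitals mark GAGGAA or GAGGAAGT and TGACG, or their reverse complements.
Ctss (chr3:95526536-95526815, plus strand): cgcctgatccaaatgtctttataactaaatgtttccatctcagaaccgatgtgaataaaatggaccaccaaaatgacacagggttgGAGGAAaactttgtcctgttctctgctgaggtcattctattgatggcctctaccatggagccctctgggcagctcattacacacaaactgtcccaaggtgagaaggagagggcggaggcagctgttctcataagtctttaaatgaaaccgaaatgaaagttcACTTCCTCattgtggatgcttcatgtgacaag
Cd53 (chr3:106790120-106790399, minus strand): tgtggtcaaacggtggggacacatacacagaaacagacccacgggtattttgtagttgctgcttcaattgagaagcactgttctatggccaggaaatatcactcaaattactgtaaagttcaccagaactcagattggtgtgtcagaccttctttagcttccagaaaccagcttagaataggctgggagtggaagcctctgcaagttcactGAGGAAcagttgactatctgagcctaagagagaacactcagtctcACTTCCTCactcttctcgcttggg
C1qb (chr4:136886171-136886450, minus strand): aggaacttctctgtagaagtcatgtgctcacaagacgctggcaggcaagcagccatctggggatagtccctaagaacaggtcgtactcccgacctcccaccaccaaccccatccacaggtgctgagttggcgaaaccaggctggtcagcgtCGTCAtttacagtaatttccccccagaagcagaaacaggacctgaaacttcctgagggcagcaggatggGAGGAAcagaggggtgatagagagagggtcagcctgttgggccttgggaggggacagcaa
C1qc (chr4:136892885-136893164, minus strand): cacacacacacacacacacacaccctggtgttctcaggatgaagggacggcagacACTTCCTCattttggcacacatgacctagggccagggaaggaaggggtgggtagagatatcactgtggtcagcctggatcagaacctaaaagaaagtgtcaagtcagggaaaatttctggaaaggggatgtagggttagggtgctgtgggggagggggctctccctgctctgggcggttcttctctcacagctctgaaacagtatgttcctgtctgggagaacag
Lgmn (chr12:102439699-102439978, minus strand): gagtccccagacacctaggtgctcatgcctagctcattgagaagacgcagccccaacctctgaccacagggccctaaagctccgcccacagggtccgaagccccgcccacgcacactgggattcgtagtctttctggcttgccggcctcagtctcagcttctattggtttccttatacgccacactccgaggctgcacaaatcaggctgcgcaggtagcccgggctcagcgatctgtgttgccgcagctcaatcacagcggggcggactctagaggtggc

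**Figure D4:**
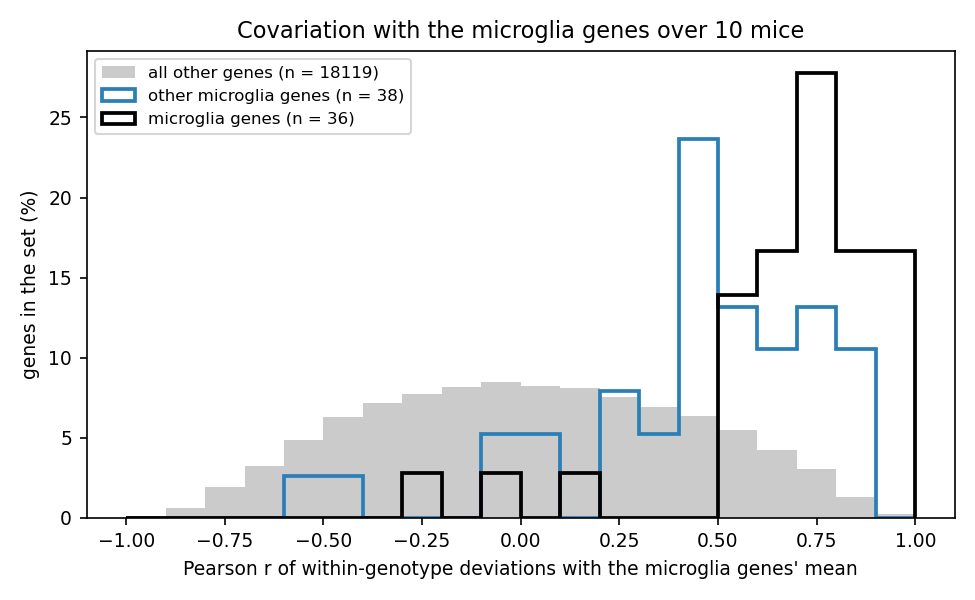
Share of genes (y axis) by Pearson r of their within-genotype deviations over 10 mice with the mean of the microglia genes (x axis, the mean of the other 35 for each of the 36). Of the 36 genes 33 lie over 0.5, the 38 other microglia genes have a median of 0.50, and the remaining genes spread around 0. Among the remaining genes, lists not drawn apart had medians of 0.62 (17 astrocyte genes), 0.61 (12 interferon response genes), 0.60 (14 brain endothelial genes) and −0.27 (11 oligodendrocyte genes).

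The mice that were low in microglia genes were low in genes of astrocytes and brain endothelium as well, but not all of them in oligodendrocyte genes. The mean deviation of the 17 astrocyte genes was −0.11 in WT replicate 4 and −0.07 in WT replicate 5, and that of the 14 brain endothelial genes −0.16 and −0.09. In Crtc1-/- replicate 5 they were −0.03 and −0.06, nearer to 0 than the −0.17 of the microglia genes, and Crtc1-/- replicate 3 had similar values (−0.04 and −0.06) with microglia genes at −0.03. Over the 10 mice the mean of the microglia genes had a Pearson r of 0.87 with that of astrocyte genes (Spearman rho 0.73, Pearson r 0.87 without the 2 mice farthest from the median of the astrocyte mean) and of 0.85 with that of endothelial genes (rho 0.72, 0.71 without 2 mice). Oligodendrocyte genes went otherwise, with an r of −0.31 (rho −0.52, −0.29 without 2 mice). The mean of neuronal genes had no steady direction (r = −0.21, rho = −0.01, 0.27 without 2 mice). Its single genes ran from −0.73 (*Nefm*) to 0.86 (*Camk2a*). Genes of perivascular macrophages had an r of 0.32 (rho 0.35), which was 0.004 without 2 mice, and blood leukocyte genes −0.42 (rho −0.39, −0.38 without 2 mice). With the astrocyte mean as a covariate, an alternative added after the data were seen, the median pairwise r of the microglia genes was 0.25 rather than 0.58. The array controls for RNA integrity give the difference between 3′ and 5′ probe sets of the same transcript. It lay between 0.03 and 0.12 for Gapdh and between 0.69 and 0.84 for β-actin on the log2 scale, with the highest β-actin value in WT replicate 1. Its r with the microglia mean was −0.25 for Gapdh (rho −0.16, 0.61 without 2 mice) and 0.27 for β-actin (rho 0.04, −0.75 without 2 mice), and its part in the covariation was not tested.

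**Figure D5:**
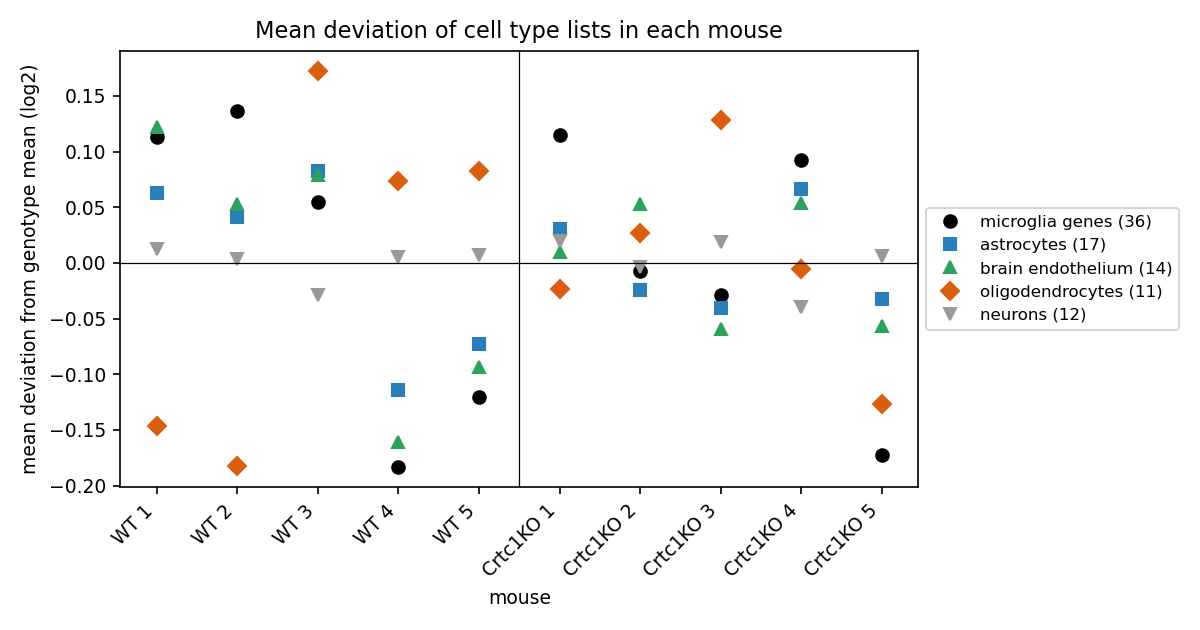
Mean deviation from the genotype mean on the log2 scale (y axis) of the microglia genes and of astrocyte, brain endothelial, oligodendrocyte and neuronal genes (symbols) in each of the 10 mice (x axis). Microglia, astrocyte and endothelial genes are all below 0 in WT replicates 4 and 5 and in Crtc1-/- replicate 5, and neuronal genes stay within 0.05 of 0.

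As group levels, the mean of the 36 microglia genes was 7.46 ± 0.14 in WT and 7.48 ± 0.11 in Crtc1-/- mice (log2 values, SD over 5 mice each), with a range of 7.27 to 7.59 in WT and 7.30 to 7.59 in Crtc1-/- mice. The astrocyte genes were at 10.17 ± 0.09 and 10.24 ± 0.05 and the endothelial genes at 8.14 ± 0.12 and 8.16 ± 0.06. The 11 oligodendrocyte genes were at 9.95 ± 0.16 in WT and 10.18 ± 0.09 in Crtc1-/- mice, and 0 of 11 passed the test, with 6 of 11 at an unadjusted p under 0.05 (limma). The 11 hippocampal genes, 3 of them brighter than the median probe set, were at 5.42 ± 0.07 and 5.28 ± 0.05. The genotypes only just did not overlap (lowest WT mouse 5.345, highest Crtc1-/- mouse 5.344). Of the 11 genes, 4 had a log2 fold change above 0, and 2 passed the test as lower in Crtc1-/- mice (*Fibcd1*, −0.41, and *Fam163b*, −0.28).

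Outside the list, the 10 genes brighter than the median probe set whose deviations were most like the mean of the microglia genes were *Stard8* (r = 0.96), *Acss1* (0.96), *Il18* (0.96), *Sardh* (0.96), *Emcn* (0.95), *Ephx2* (0.95), *Ntrk3* (0.93), *Daam1* (0.93), *As3mt* (0.93) and *Epas1* (0.93), over 10 mice. *Il18* encodes a cytokine of the interleukin-1 family, *Emcn* the endothelial sialomucin endomucin and *Epas1* the hypoxia-inducible factor HIF-2α. None of the 10 passed the test of genotype (adjusted p of 0.591 or higher from limma).

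Other genes of microglia were read from lists that did not overlap the 36. Of 38 other microglia genes, 1 was higher and 0 were lower in Crtc1-/- cortex. This was *Rgs10*, a regulator of G protein signaling that neurons express too, which rose from 9.07 ± 0.05 to 9.39 ± 0.03 (SD, n = 5 per genotype, log2 fold change 0.32, adjusted p = 0.00248 from limma). *Rgs10* did not pass with the oligodendrocyte or the hippocampal mean as a covariate (adjusted p = 0.0938 and 0.250 from limma). Both covariates differed between genotypes themselves. The hippocampal mean was lower in Crtc1-/- mice, with a narrow gap between genotypes. The oligodendrocyte mean was higher in Crtc1-/- mice (10.05 to 10.31, against 9.76 to 10.12 in WT), with a small overlap. *Coro1a*, which encodes the actin-binding protein coronin 1A, had the next smallest p and went the other way, with 9.97 ± 0.07 in WT and 9.77 ± 0.03 in Crtc1-/- mice (log2 fold change −0.20, adjusted p = 0.0681 from limma). The deviations of the 38 genes had a median r of 0.50 with the mean of the 36 genes, with 9 of 38 over 0.7, among them *Dock8* (0.87), *Pld4* (0.86), *Ncf1* (0.85) and *Ikzf1* (0.83). Of 21 genes linked to disease-associated microglia, 1 was higher and 0 were lower, and 5 of 21 had an unadjusted p under 0.05, all with a log2 fold change above 0. Beside *Lpl* these were *Cd52* (0.46, adjusted p = 0.372 from limma), the dim *Ccl4* (0.21, 0.394), *Cd9* (0.20, 0.391) and *Ctsz* (0.13, 0.503). Of all 21 genes, 14 had a log2 fold change above 0 and 7 below, among them *Clec7a* (−0.07) and *Itgax* (−0.04). Only 12 of the 21 were brighter than the median probe set. *Lpl*, lipoprotein lipase, which lies on chromosome 8 as *Crtc1* does, rose from 7.99 ± 0.26 to 8.59 ± 0.11 (log2 fold change 0.60, adjusted p = 0.0269), and it went opposite to the microglia genes between mice (r = −0.63). *Lpl* no longer passed without WT replicate 1, 2 or 3, or without Crtc1-/- replicate 1, 2, 4 or 5, each left out alone (adjusted p from 0.0603 to 0.0802 from limma).

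No ligand of microglia receptors passed the test among 9 measured, with 1, *Cx3cl1*, at an unadjusted p under 0.05 (limma). *Csf1* and *Il34*, the ligands of Csf1r, had log2 fold changes of 0.04 (adjusted p = 0.881) and 0.01 (adjusted p = 0.984). *Cx3cl1*, the fractalkine of neurons that binds Cx3cr1, read 11.40 ± 0.05 in WT and 11.31 ± 0.03 in Crtc1-/- mice (SD, n = 5 per genotype, adjusted p = 0.451 from limma). *Tgfb1*, which sustains microglial identity, gave a log2 fold change of −0.05 with an adjusted p of 0.919 from limma. It was read from dim values, above only 41.35% of probe sets. Of 16 inflammatory cytokine and response genes, only 4 were brighter than the median probe set, so most were read from dim values. Of these 16 genes 0 passed in either direction, with 3 at an unadjusted p under 0.05 (*Tnfaip3*, −0.16, and the dim *Ccl5*, 0.17, and *Cxcl10*, 0.14). Of 12 interferon response genes 0 passed and 0 were under that p, as was so for 9 genes of antigen presentation, where *H2-K1* and *H2-D1*, near-identical genes whose probe sets may cross-hybridize, had the smallest p (log2 fold change 0.15 each). Of 10 genes of perivascular macrophages 0 passed and 1, *Lyve1* (−0.34, adjusted p = 0.354), was under 0.05 unadjusted, and of 10 blood leukocyte genes 0 passed at either threshold.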

How the data were processed

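Cortical RNA of 5 WT and 5 Crtc1-/- mice was measured on GeneChip Mouse Genome arrays (Affymetrix). Per the labels, biotinylated cRNA was made from 300 ng total RNA. The authors checked array quality with RACE, excluded chips above an error limit and deposited, for every probe set, a log2 value in each array, normalized between arrays by a method not given in the sources used here. The values lay between 2.14 and 13.90 and no detection calls were used. The number of arrays limits the precision.

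Of 45101 probe sets, 64 controls were left out. Of the 45037 tested, the annotation names 1 gene for 34945, several for 932 and none for 9160, and 34741 matched RefSeq genes of GRCm38.p6. Each of 18193 genes was read by its brightest probe set. Crtc1-/- minus WT was fitted in limma 3.58.1 (lmFit, then eBayes; R 4.3.3), with Benjamini-Hochberg correction over all genes at 0.05 and 95% confidence intervals, after a run on simulated arrays. Single genes were also tested with a two-sided exact permutation test over 252 labellings (smallest p, 0.00794).

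Deviations from genotype means gave the correlations between genes. The microglia genes and the other lists were chosen with earlier results of these data known. Every one of the 36 genes is named, with genes taken from the 3 of smallest p or those that passed in the other lists, and the 10 genes most alike. *Dock8*, *Pld4*, *Ncf1*, *Ikzf1*, *Ccl4*, *Ctsz*, *Csf1*, *Il34*, *Tgfb1* and the C1q pairs were named outside this rule, after their values were seen. Marker lists of hippocampus, red blood cells, neurons and oligodendrocytes served as covariates or for comparison. The mice were compared unpaired. The same-numbered Crtc1-/- array was the closest match of 0 of 5 WT arrays, but 5 pairs cannot show whether same-numbered mice shared a litter or day. Nothing in the labels says more of how the mice were sampled. The limma p-values set a difference against the spread between these mice, moderated toward that of all genes.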

Additional observations from a re-analysis of the deposited data

Results flagged for a closer look

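Within the 72 sets of 5 mice (36 genes in each genotype), 2 held a mouse far from the other 4, which is fewer than the roughly 1 in 20 that Dixon's criterion flags by chance. *Trem2* read 6.98 in Crtc1-/- replicate 5, the lowest of its genotype, with the nearest mouse at 7.29. This mouse was also low in most other microglia genes. *Lgmn* read 8.18 in Crtc1-/- replicate 3, with the nearest mouse at 8.31.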

How the results depend on the processing

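The counts of 0 lower and 0 higher microglia genes were found in every alternative run, namely median centring or quantile normalization of arrays, dropping dim genes or cross-hybridizing probe sets, averaging a gene's probe sets, a trended and robust prior, array weights, marker means as covariates and each array left out in turn. At an unadjusted p under 0.05 the count of 0 was 7 with the astrocyte, 4 with the oligodendrocyte and 2 with the hippocampal covariate, 4 with the mean of the 36 genes, 1 with the block and 0 or 2 with an array left out. The share of all genes under that p was not computed in these runs. The lowest adjusted p of any microglia gene was 0.132 (*Csf3r*, with the oligodendrocyte covariate). The median log2 fold change ran from −0.05 to 0.06 with an array left out and from −0.11 to 0.06 otherwise, and 34 to 36 and 32 to 36 intervals lay within a 1.5-fold change. The median pairwise r was 0.52 to 0.61 with an array left out, and it was 0.25 with the astrocyte mean as a covariate, an alternative added after the data were seen, as was the mean of the 36 genes as a covariate, where 0 genes passed. Of 789 log2 fold changes of single genes under 22 alternatives, 112 changed sign, none of them called. With the replicate number as a block, no microglia gene passed, the median pairwise r was 0.56 and 34 intervals lay within the bound, and 36 genes of all 18193 were lower and 26 higher, against 83 and 56 without it. Over all genes, 148 were lower and 88 higher with the trended prior, and 16 and 12 with the oligodendrocyte covariate, whose mean was 0.23 higher in Crtc1-/- mice on the log2 scale. The hippocampal covariate, whose values differ between genotypes with a narrow gap, gave 8 and 6. *Rgs10* passed in 20 of 22 alternatives and lost its call with these 2 covariates (adjusted p = 0.0938 and 0.250 from limma), and *Lpl* with them and with the block.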
